A study of Mus musculus with 16 samples.

Results

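The miR-183, miR-96 and miR-182 cluster was examined in plasma small extracellular vesicles (pEVs) of PS19 tauopathy mice and wild-type (WT) mice. The members were the mature 5p miRNAs mmu-miR-183-5p, mmu-miR-96-5p and mmu-miR-182-5p, chosen by name, and they were 3 of the 15159 non-coding RNAs (ncRNAs) and of the 1247 miRNA entries in the count table. PS19 mice carry a human MAPT transgene with the P301S mutation, driven by the mouse prion promoter on a C57BL/6xC3H background, and were used as heterozygotes (PS19+/-). The WT mice were their littermates without the transgene, and both groups were 9.6 months old. Each group held 8 mice with 1 small RNA library per mouse, so n = 8 throughout. The study used as many males as females in each group. The sex of each library is not in the labels, so sex did not enter any fit. Vesicles were precipitated from 200 µL of plasma per mouse and were not enriched for any cell of origin, so the levels describe a mixture of sources. In such a mixture, fewer vesicles from a source and less of a miRNA per vesicle cannot be told apart.

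The 3 miRNAs are made from 1 primary transcript and have closely related seeds, the bases at the 5′ end with which a miRNA pairs with its target mRNAs. The cluster is best known from sensory cells, where photoreceptors of the retina, hair cells of the inner ear and sensory ganglion neurons express it strongly, and mutations in the miR-96 seed cause hearing loss in mice and humans. Members of the cluster are also found in other tissues, including epithelia and lymphocytes, so their presence in plasma does not name a source.

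The mature sequences are shown because the related but not identical seeds are what the members have in common. They were taken from RefSeq (build GRCm38), read 5′ to 3′, with bases 2 to 8, the seed, in capitals.

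mmu-miR-183-5p: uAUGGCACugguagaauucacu
mmu-miR-96-5p: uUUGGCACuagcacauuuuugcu
mmu-miR-182-5p: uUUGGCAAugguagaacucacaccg

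All 3 members shared UGGCA at bases 3 to 7, and each seed differed from the others at its ends. The seeds of miR-183-5p and miR-96-5p were identical at 6 of 7 positions, as were those of miR-96-5p and miR-182-5p, whereas miR-183-5p and miR-182-5p shared 5. Over the whole molecule the order was different. miR-183-5p and miR-182-5p were identical at 18 of 22 positions, with UGGUAGAA as their longest common run, whereas miR-183-5p and miR-96-5p were identical at 13 of 22 and miR-96-5p and miR-182-5p at 12 of 23. With 4 differing positions, miR-183-5p and miR-182-5p were still distinct molecules for a read that covers the mature sequence. A search of 1679 mature mouse miRNAs found 1 outside the cluster with a member's seed, miR-1271-5p (chromosome 13, 54578152 to 54578173, plus strand), which has the seed of miR-96-5p and was not analysed here.

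mmu-miR-1271-5p: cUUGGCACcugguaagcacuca

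The members lie on the minus strand of mouse chromosome 6 (GRCm38), in a span of 3820 bases. miR-183-5p is 22 bases long and occupies 30169711 to 30169732, within the hairpin Mir183 (30169668 to 30169737). miR-96-5p is 23 bases long and occupies 30169506 to 30169528, within the hairpin Mir96 (30169446 to 30169551). miR-182-5p is 25 bases long and occupies 30165962 to 30165986, within the hairpin Mir182 (30165918 to 30165992). Mir183 and Mir96 are separated by 116 bases and Mir96 and Mir182 by 3453 bases. The annotation places no other gene in the span. The nearest genes are Rncr4, a long non-coding RNA on the plus strand 3155 bases away, and Nrf1, a protein-coding gene on the plus strand 12459 bases away.

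Reads assigned to ncRNAs ranged from 36220722 to 117583663 per library, but reads assigned to miRNA entries made up only 0.0645 to 7.51% of them. Both totals were summed over entries, and 4096 of all ncRNA entries had the same values as another entry. Reads behind such entries may enter a total more than once, so the percent is a share of summed counts. miRNA reads numbered 52562 to 1246139 in PS19 (median 531486.5) and 339731 to 2720314 in WT (median 723394). PS19 replicates 4 and 1 had the fewest, with 52562 and 71308, and no other library had under 100000, so results are also given without these 2 libraries. Levels are given on 2 scales. The normalized count is the read count divided by the size factor that the authors computed over all ncRNAs. The miRNA share is the reads of a member per 1000000 miRNA reads of its library (RPM, of miRNA reads). A mature miRNA is covered by 1 read, so neither scale was divided by length.

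miR-183-5p and miR-182-5p were present in all 16 libraries, whereas miR-96-5p was almost absent. miR-183-5p was the most abundant member, with 5045 reads in all, followed by miR-182-5p with 2618 and miR-96-5p with 5. By mean miRNA share over the 16 libraries, miR-183-5p ranked 92nd of 830 mature miRNAs (338 RPM), miR-182-5p 111th (214 RPM) and miR-96-5p 540th (0.942 RPM). The entries counted as mature here, and in the sets of 225 and 223 below, also include some hairpin entries of the let-7 family. The cluster thus entered the libraries mainly as miR-183-5p and miR-182-5p.

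The normalized count of miR-183-5p was 23.0 to 499 in PS19 (median 118) and 114 to 645 in WT (median 182). The highest library of each group was WT replicate 5 (645) and PS19 replicate 8 (499), and the lowest were PS19 replicate 4 (23.0) and PS19 replicate 1 (32.3). The groups overlapped, although 4 PS19 libraries were below every WT library and 5 were below the WT median. As group means, miR-183-5p was 165 ± 153 in PS19 and 243 ± 180 in WT (SD, n = 8). The read counts behind these values ran from 6 in PS19 replicate 4 (95% Poisson interval 2.20 to 13.1) to 1660 in WT replicate 5 (1581 to 1742), so the value of the lowest library is the least precise.

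The normalized count of miR-182-5p was 15.3 to 275 in PS19 (median 109) and 77.2 to 229 in WT (median 113). The same libraries were extreme as for miR-183-5p, with PS19 replicate 4 (15.3) and PS19 replicate 1 (32.3) lowest and PS19 replicate 8 (275) and WT replicate 5 (229) highest. The groups overlapped, and the WT libraries lay inside the range of the PS19 libraries. Of the PS19 libraries, 4 were outside the WT range, 3 of them below it. As group means, miR-182-5p was 110 ± 79.9 in PS19 and 126 ± 50.3 in WT (SD, n = 8).

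miR-96-5p had 2 reads in PS19 replicate 3, 3 reads in PS19 replicate 8 and none in the other 14 libraries. Over all 8 PS19 libraries this was 5 of 4413172 miRNA reads, or 1.13 RPM, and in WT 0 of 8426020, which allows up to 0.356 RPM when a count of 0 is read as at most 3. No library was above 3 reads, so the fitted differences given below for miR-96-5p depend on the method and its added counts and are no measure of a fold. The reads came from 2 of 8 PS19 libraries, and the exact two-sided permutation test over libraries gave p = 0.467.

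**Figure D1:**
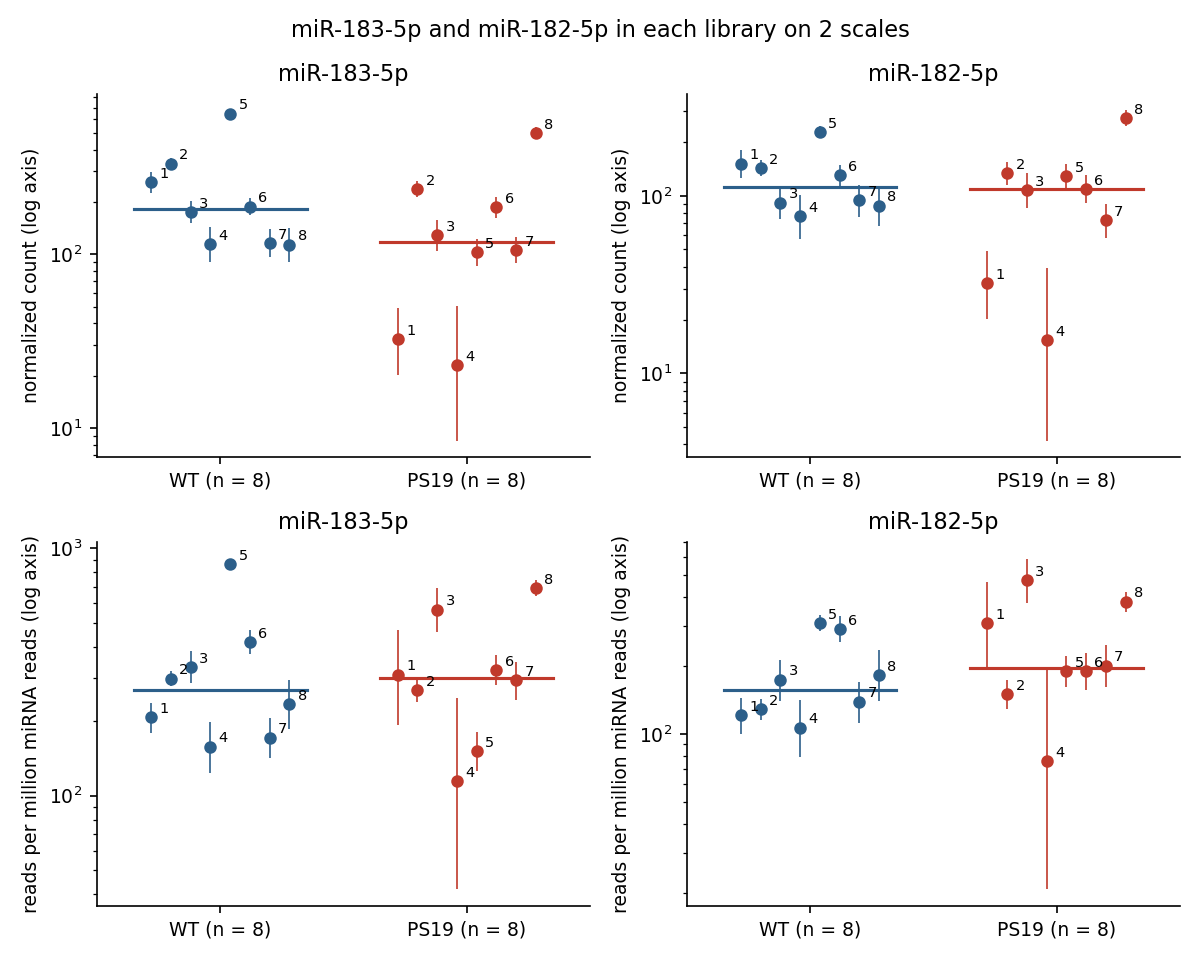
Level of miR-183-5p and miR-182-5p in each of the 16 libraries, as normalized count (upper panels) and as RPM of miRNA reads (lower panels), on log axes. Points are libraries numbered by replicate, vertical lines are 95% Poisson intervals of the read count (counting error only) and horizontal lines are group medians. PS19 replicates 1 and 4 are the lowest points in normalized counts, and on the miRNA share scale PS19 replicate 1 lies at 309 RPM for both miRNAs.

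The question of the design was whether pEV ncRNAs differ between PS19 and WT mice. None of the 3 members passed the threshold of the study, a raw p under 0.05, in limma fitted over all 15159 ncRNAs. For comparison, 4.85% of all ncRNAs passed it (735 of 15159: 2.72% higher and 2.13% lower in PS19), and 5.93% of miRNA entries (74 of 1247: 0.882% higher and 5.05% lower). None of the 15159 ncRNAs passed a Benjamini-Hochberg adjusted p under 0.05 in limma (0.0%), whereas 113 did in DESeq2 and 318 in edgeR, so every call named here in limma is at the raw threshold. DESeq2 on the recovered reads also called none of the 3, whereas edgeR called miR-96-5p alone, on its 5 reads (log2 difference 2.59, raw p 0.00862, Benjamini-Hochberg adjusted p 0.124). At the raw threshold edgeR called 2295 of 15159 ncRNAs and 245 of 1247 miRNA entries, more than limma did, and DESeq2 called 822 and 38.

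miR-183-5p was lower in PS19 by 0.85 on the log2 scale, at a limma standard error of 0.57 (95% interval -2.02 to 0.31). The raw limma p was 0.145 and the Benjamini-Hochberg adjusted p 0.829, and an exact two-sided permutation test of the mean difference gave p = 0.178. As a ratio on the log2(normalized count + 1) scale, PS19 was 0.554 of WT, with an interval from 0.247 to 1.24. The difference was therefore smaller than the spread between libraries could resolve. Without PS19 replicate 8, the highest PS19 library, the limma difference was -1.16 (raw p 0.0457, adjusted p 0.820), and without the 2 libraries under 100000 miRNA reads it was -0.19 (raw p 0.697).

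miR-182-5p was lower in PS19 by 0.52 on the log2 scale, at a limma standard error of 0.51 (95% interval -1.57 to 0.54). Its raw limma p was 0.322, its Benjamini-Hochberg adjusted p 0.829, and the exact two-sided permutation p was 0.329. As a ratio, PS19 was 0.698 of WT (0.336 to 1.45). Without the 2 libraries under 100000 miRNA reads the sign turned, with a limma difference of 0.094 (raw p 0.820). The log2 difference of miR-96-5p was 0.45 (standard error 0.26, 95% interval -0.10 to 0.99, limma raw p 0.103), a value that depends on the 1 added before the logarithm.

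On the miRNA share scale the genotypes lay closer for miR-183-5p and in the other order for miR-182-5p. miR-183-5p took 114 to 693 RPM in PS19 (median 300.4, mean 339 ± 197) and 158 to 867 in WT (median 266, mean 336 ± 232). The groups overlapped almost entirely, and the log2 difference was 0.019 (exact permutation p = 0.963). miR-182-5p took 76.1 to 475 RPM in PS19 (median 195, mean 246 ± 132) and 107 to 308 in WT (median 156, mean 181 ± 77.4). Here 6 PS19 libraries were above the WT median, and the log2 difference was 0.35 (exact permutation p = 0.338). With miRNA reads as the scaling in limma, the differences were 0.020 for miR-183-5p (raw p 0.967) and 0.35 for miR-182-5p (raw p 0.436). That scaling also moved the median of all ncRNAs from -0.01 to 0.29, and relative to that median miR-183-5p was at -0.27 and miR-182-5p at 0.06.

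The negative differences of the members in normalized counts were shared by most miRNAs. Over all 1247 miRNA entries, most of which had a mean under 10, 886 were negative and the median was -0.20. Of the 225 entries counted as mature miRNAs whose mean normalized count reached 10, let-7 hairpin entries included, 209 had a negative log2 difference and the median was -0.66. miR-183-5p lay 0.20 below that median and miR-182-5p 0.14 above it. Over all ncRNAs the median was -0.01, with 7702 of 15159 negative.

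**Figure D2:**
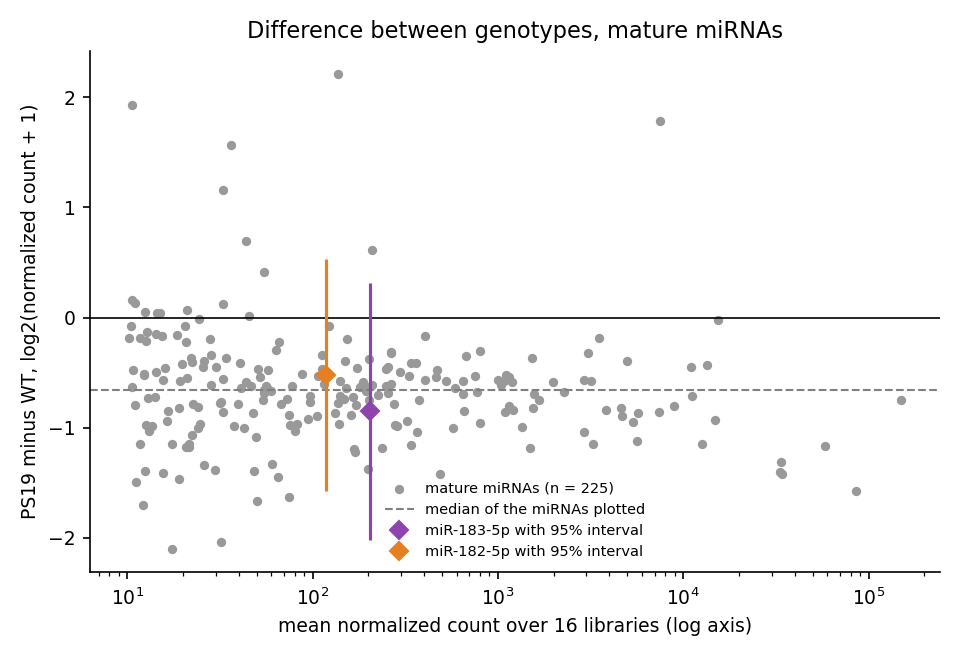
Difference between PS19 and WT in log2(normalized count + 1) for 225 mature miRNAs (grey), against their mean normalized count over 16 libraries on a log axis. The 225 include some hairpin entries of the let-7 family. Diamonds with 95% limma intervals are miR-183-5p (-0.85) and miR-182-5p (-0.52), both intervals cross 0, and the dashed line is the median of the miRNAs plotted (-0.66).

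The members' normalized counts moved with the miRNA share of a library's assigned reads, as summed over entries. Over 16 libraries, the log2 miRNA share of assigned reads and log2(normalized count + 1) correlated for miR-183-5p with a Pearson r of 0.86 (permutation p = 8e-05, adjusted 0.00016) and a Spearman rho of 0.77 (p = 0.0006, adjusted 0.0006). For miR-182-5p, r was 0.82 (permutation p = 0.00022, adjusted 0.00022) and rho 0.85 (p = 6e-05, adjusted 0.00012). Without the 2 libraries farthest from the median share, PS19 replicate 4 and WT replicate 2, r was 0.84 for both miRNAs. Within PS19, r was 0.87 and 0.88, and within WT 0.79 and 0.72, for miR-183-5p and miR-182-5p in that order. As shares of miRNA reads, r was 0.31 for miR-183-5p (permutation p = 0.247, adjusted 0.494, rho 0.23 with p = 0.387) and -0.02 for miR-182-5p (permutation p = 0.943, adjusted 0.943, rho 0.01 with p = 0.987). Without the same 2 libraries these were 0.17 and -0.21. With the log2 miRNA share as a covariate in limma, the difference between genotypes was -0.16 for miR-183-5p (raw p 0.705) and 0.028 for miR-182-5p (raw p 0.946).

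**Figure D3:**
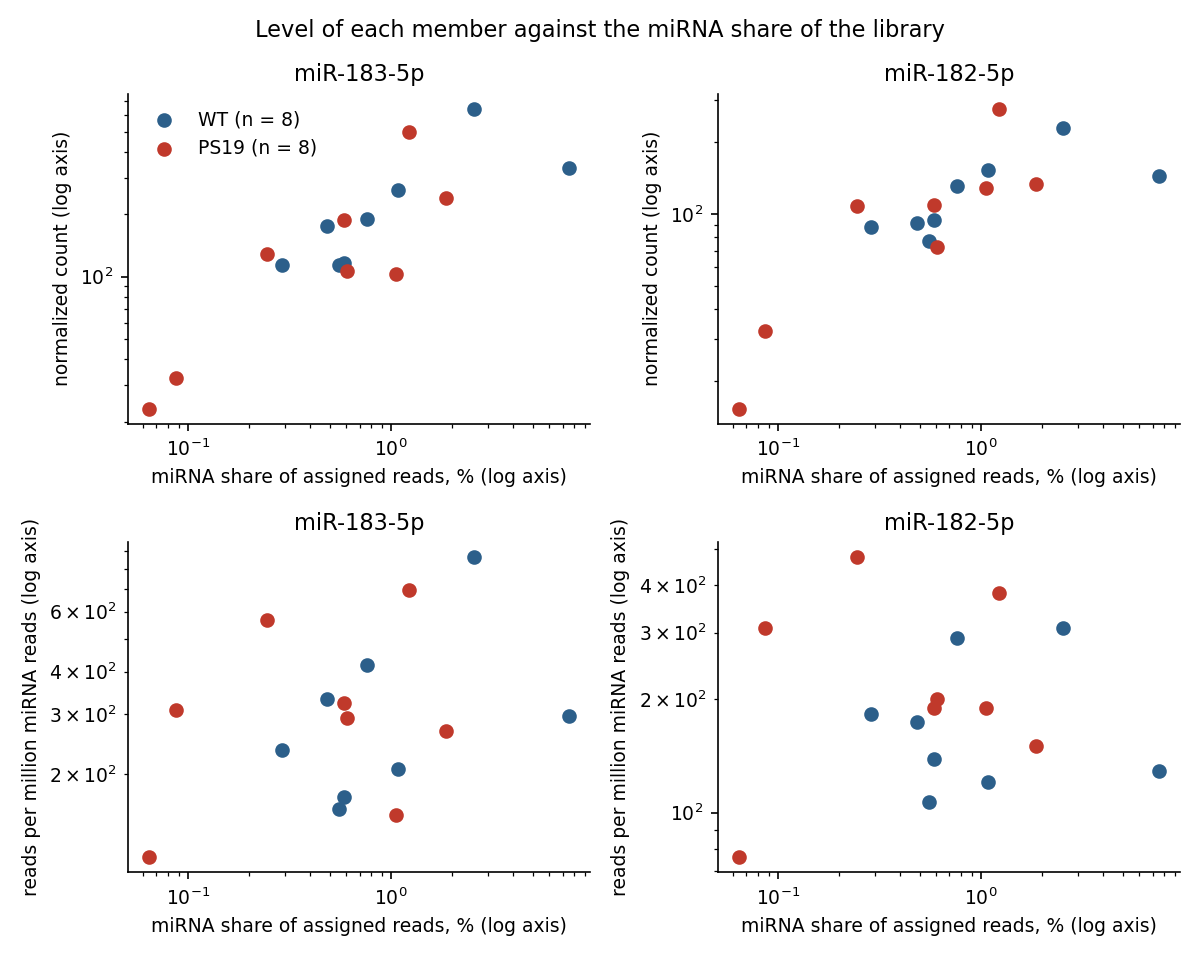
Level of miR-183-5p (left) and miR-182-5p (right) against the percent of assigned reads, summed over entries, that were miRNA, all axes log, 1 point per library. Normalized counts (upper panels) increase with the miRNA percent (r = 0.86 and 0.82), whereas RPM of miRNA reads (lower panels) correlate less with it (r = 0.31 and -0.02).

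miR-183-5p and miR-182-5p varied together across libraries. On the log2(normalized count + 1) scale, Pearson r was 0.95 over 16 libraries (permutation p = 2e-05, the smallest that 100000 resamples can give, adjusted over 3 pairs 6e-05), and Spearman rho was 0.90 (p = 2e-05, adjusted 6e-05). Without PS19 replicates 1 and 4, the libraries farthest from the median, r was 0.89, and it was 0.96 within PS19 and 0.95 within WT. On the miRNA share scale, where the miRNA yield of a library is divided out, r was 0.83 (permutation p = 0.00012) and rho 0.78 (p = 0.00074), with 0.81 left without PS19 replicate 4 and WT replicate 5. The share-scale r was 0.87 within PS19 and 0.86 within WT. The pairs with miR-96-5p gave r = 0.22 with miR-183-5p (permutation p = 0.449, adjusted 0.449, rho 0.23 with p = 0.417, r = 0.17 without PS19 replicates 1 and 4) and r = 0.30 with miR-182-5p (permutation p = 0.218, adjusted 0.328, rho 0.27 with p = 0.344, r = 0.35 without them), and both rest on 2 libraries with a read.

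The balance between the pair is given as reads of miR-183-5p per read of miR-182-5p. miR-183-5p had 0.801 to 1.81 reads per miR-182-5p read in PS19 (mean 1.41 ± 0.375) and 1.24 to 2.81 in WT (mean 1.78 ± 0.550, SD, n = 8). As a percent of the reads of both, miR-183-5p was 44.5 to 64.4% in PS19 (mean 57.5 ± 7.24) and 55.3 to 73.8% in WT (mean 62.8 ± 6.55). The extremes were PS19 replicate 5, at 44.5% (125 of 281 reads, 95% Wilson interval 38.8 to 50.3), and WT replicate 5, at 73.8% (1660 of 2250 reads, 71.9 to 75.6). PS19 replicate 5 was the only library of the 16 with more miR-182-5p than miR-183-5p reads, although its interval reaches 50.3%, and PS19 replicate 1 had 22 of each. These 2 libraries were picked as the lowest and highest of the 16, and the ranges of the groups overlapped.

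**Figure D4:**
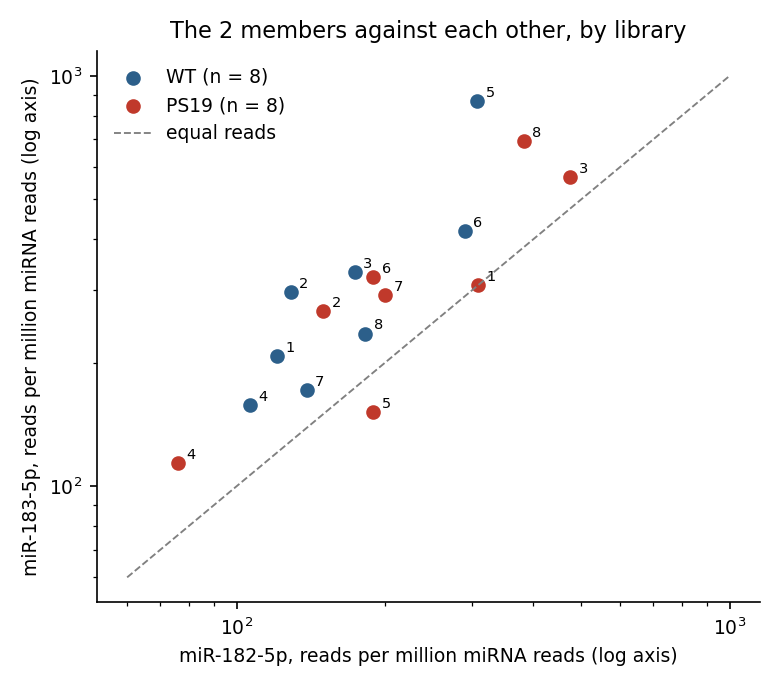
Reads RPM miRNA reads of miR-183-5p against miR-182-5p on log axes, 1 point per library numbered by replicate, with a dashed line where both are equal. Libraries high in one were high in the other (r = 0.83), 14 of 16 lie above the line, PS19 replicate 1 lies on it and PS19 replicate 5 below it.

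The count table also held entries for 2 of the 3 hairpin precursors. The entry mmu-mir-183 had 693 reads and mmu-mir-182 had 1 read, although their mature 5p miRNAs differed far less, with 5045 and 2618. The hairpins are shown because of this contrast, with the mature 5p miRNA in capitals.

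Mir183: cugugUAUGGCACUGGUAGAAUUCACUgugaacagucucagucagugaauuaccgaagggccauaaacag
Mir182: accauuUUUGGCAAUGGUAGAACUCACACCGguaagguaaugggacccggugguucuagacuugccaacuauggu

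Which part of the hairpin the reads of a precursor entry cover was not given in the sources used here, so these reads may be fragments of any part of it. In PS19, mmu-mir-183 had 0 to 111 reads (median 16) and a normalized count of 0 to 80.7 (mean 25.4 ± 27.3), and in WT 6 to 261 reads (median 23.5) and a normalized count of 8.53 to 101 (mean 30.1 ± 30.0). The groups overlapped, and the limma log2 difference was -0.99 (standard error 0.78, raw p 0.219, exact permutation p = 0.319). Its reads were 7.5 to 15.7% of those of miR-183-5p in WT but 0 to 35.2% in PS19, where PS19 replicate 7 had 127 miR-183-5p reads and none of the precursor entry, and PS19 replicate 5 had 125 and 44. The entry mmu-mir-96 and the 3p miRNAs of the 3 hairpins were not analysed here.

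The spread of miR-183-5p and miR-182-5p between libraries was near that of other miRNAs, and miR-96-5p was too low to rank. The pooled within-genotype SD of log2(normalized count + 1) was 1.19 for miR-183-5p (85th highest of 225 mature miRNAs) and 0.979 for miR-182-5p (144th), beside a median of 1.06. As log2 miRNA shares the SDs were 0.819 (131st) and 0.692 (160th), beside a median of 0.910. Within each genotype, the SD of log2(normalized count + 1) was wider in PS19 (1.44) than in WT (0.883) for miR-183-5p. For miR-182-5p it was likewise wider in PS19 (1.28) than in WT (0.523). The 95% intervals above came from the limma fit rather than from these SDs. They include a fall to 0.247 of WT and a rise to 1.24 times WT for miR-183-5p.

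The miRNAs whose pattern was most like the cluster were ranked by Pearson r between their log2(normalized count + 1) and the mean of the 3 members, over 16 libraries and among 223 mature miRNAs outside the cluster. These were miR-215-5p (r = 0.93), miR-215-3p (0.88), miR-200a-3p (0.88), an miRNA of epithelial cells, miR-146a-5p (0.87), an miRNA induced by inflammatory signalling, and miR-214-3p (0.86). In this measure all miRNAs of a library share its miRNA yield, and the median r was 0.50, with 180 of 223 above 0. On the miRNA share scale, set against miR-183-5p and miR-182-5p only, the median r was 0.05, miR-215-5p remained first (0.88), miR-24-3p was second (0.82) and miR-215-3p the third (0.81), while miR-214-3p was 21st (0.58). Of the 5, miR-214-3p passed the raw threshold in limma, at 12.7 ± 9.83 normalized counts in PS19 and 25.3 ± 13.3 in WT (log2 difference -1.46, raw p 0.0394, exact permutation p = 0.0645), and the other 4 had log2 differences of -0.99 to -0.19.

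Other miRNAs with which the cluster shares its chromosome or its best-known tissues were read beside it. Of 10 miRNAs encoded elsewhere on chromosome 6, 8 were analysed, none was called higher and 2 were called lower in PS19, beside 5.05% of all miRNA entries called lower, with a median log2 difference of -0.55, between the medians of all miRNA entries (-0.20) and of the 225 more abundant mature miRNAs (-0.66). In this list miR-29b-3p and miR-129-5p are also made from a locus on another chromosome, so their reads cannot be assigned to chromosome 6. miR-335-3p fell by 2.10 on the log2 scale, from 27.3 ± 11.5 normalized counts in WT to 7.76 ± 7.56 in PS19 (raw limma p 0.000693, adjusted p 0.829, exact permutation p = 0.000777), and miR-29b-1-5p had 8 reads in WT and 0 in PS19, where the fitted difference of -0.69 (raw limma p 0.0176) depends on the added 1 and is no measure of the fold. Of 12 miRNAs known from sensory organs, retina and pineal gland, 10 were analysed and none passed the raw threshold, with a median of -0.42, also between those medians. Among these, miR-204-5p, an abundant miRNA of the retinal pigment epithelium, was at 6.11 ± 9.45 in PS19 and 5.41 ± 6.08 in WT, and miR-124-3p, a neuronal miRNA, at 39.0 ± 68.1 and 41.7 ± 46.8.

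Markers of the cells that could feed the vesicles were taken as 8 lists of 40 miRNAs, of which 39 were analysed. Of these, 1 was called higher and 4 lower in PS19, beside 0.882% and 5.05% of all miRNA entries, most of which had a mean under 10. In the limma fit limited to a mean of at least 10, 5 of 294 miRNA entries were called higher and 31 lower. The markers had a median log2 difference of -0.47, likewise between -0.66 and -0.20. Beside the miR-183 cluster, the epithelial list had all 7 of its miRNAs analysed and 2 lower, miR-203-3p (log2 difference -1.37, raw p 0.0180) and miR-141-3p (-1.23, raw p 0.0433), with a median of -1.03, below both. Its summed share was 266 to 1637 RPM in PS19 (median 924) and 670.2 to 2140 in WT (median 905), so the medians of the share lay in the other order. The liver marker miR-122-5p (-1.57, raw p 0.0387, exact permutation p 0.0805) and the red cell marker miR-486a-5p (-1.41, raw p 0.0410, exact permutation p 0.0791) were also lower, and the muscle miRNA miR-206-3p was higher (1.79, raw p 0.0361, exact permutation p 0.0903), so these 3 passed in limma but not in the exact test. The exact test gave 0.0221 for miR-203-3p and 0.0347 for miR-141-3p. In the muscle list 1 of 4 was called, and the others were at -0.024 (miR-1a-3p, raw p 0.975), 1.16 (miR-133a-3p, raw p 0.168) and 1.01 (miR-133b-3p, raw p 0.182). In the red cell list miR-144-5p had a positive difference (0.36, raw limma p 0.452). It had only 12 reads in PS19 and 5 in WT, in 6 of 16 libraries, so this value depends on the added 1. The summed share of the liver list was 29624 to 240744 RPM in PS19 (median 95296) and 37918 to 306735 in WT (median 178125), and that of the red cell list 12652 to 95603 (median 57373) and 37369 to 107377 (median 64854). For the muscle list it was 5917 to 153658 RPM in PS19 (median 37165) and 5043 to 88688 in WT (median 11028). These 3 sums overlapped between genotypes, with the liver and muscle medians apart in opposite directions. The platelet and myeloid, neuron and endothelial lists had none called in limma, although for the endothelial miR-126a-3p (log2 difference -0.75, raw limma p 0.0849) the exact permutation p was 0.0169, and the neuron list shares miR-124-3p and miR-9-5p with the sensory list. The lymphocyte list had 5 of 5 analysed and none called, with a median of -0.19 and a summed share of 5460 to 20729 RPM in PS19 (median 8638) and 3247 to 9624 in WT (median 5537). No listed marker that was analysed was at 0 in every library, and the part of any of these cells in the levels of the cluster was not tested.

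The library names in the labels began with G for all 8 PS19 libraries and for WT replicates 2 and 4, with F for WT replicates 1, 5, 6 and 7, and with A for WT replicates 3 and 8. What the letter marks was not given in the sources used here. Within the letter G, the limma difference was -0.80 for miR-183-5p (95% interval -2.86 to 1.26, raw p 0.433) and -0.35 for miR-182-5p (-2.33 to 1.63, raw p 0.717), with 2 WT libraries. Over all ncRNAs the calls within G were 139 higher and 505 lower, and over miRNA entries 2 higher and 95 lower, against 412 and 323, and 11 and 63, with all libraries. For the letters F and A genotype and letter cannot be told apart, since they hold no PS19 library. In WT the normalized count of miR-183-5p was 114 and 333 for G, 117 to 645 for F and 114 to 176 for A, so the letters overlapped. The correlation of the pair was 0.95 in the 10 libraries with G and 0.95 in the 6 others, and 0.84 and 0.89 on the miRNA share scale. That between normalized count and miRNA share was 0.86 and 0.94 for miR-183-5p and 0.80 and 0.96 for miR-182-5p, in the same order. With the members as shares of miRNA reads, it was 0.20 and 0.67 for miR-183-5p and -0.10 and 0.40 for miR-182-5p.

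**Figure D5:**
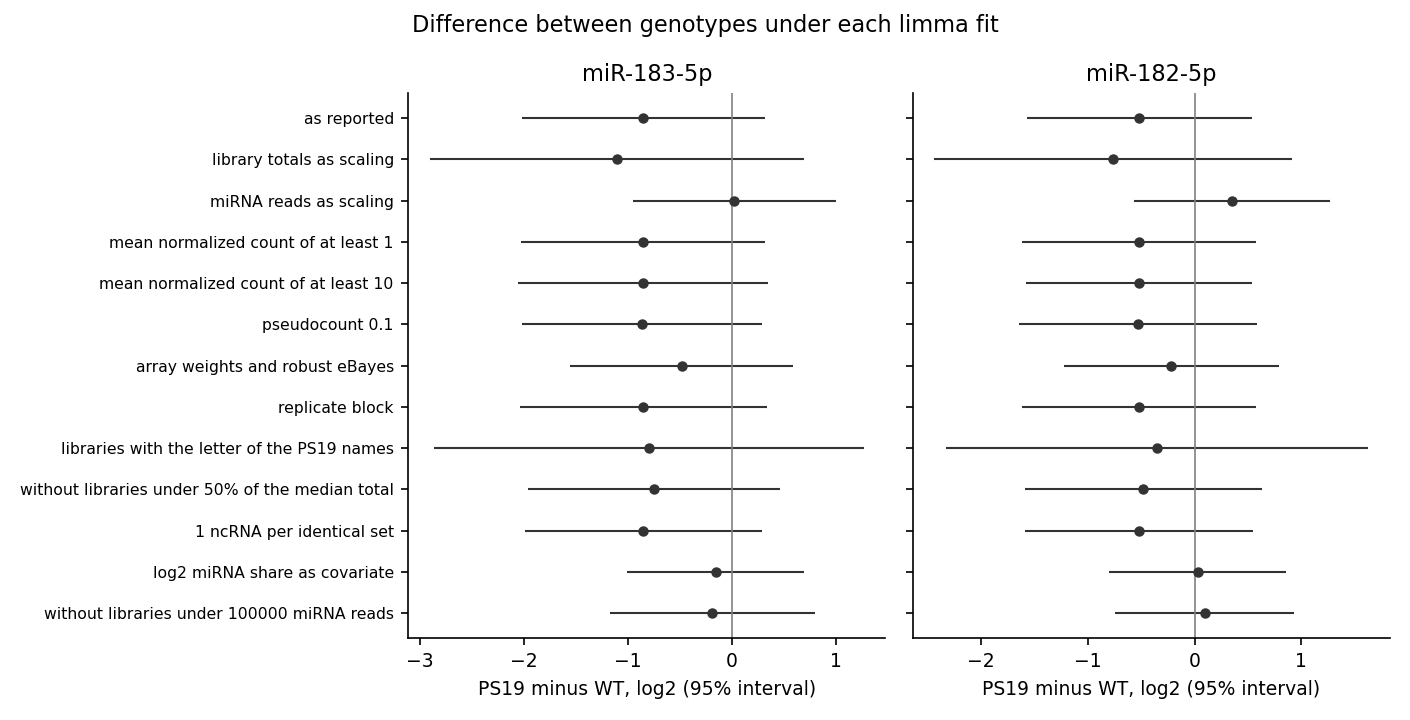
Difference between PS19 and WT on the log2 scale with its 95% interval for miR-183-5p and miR-182-5p, for each limma analysis named on the vertical axis. Every interval includes 0, and the values are nearest to 0 or above it with miRNA reads as scaling, with the miRNA share as covariate and without the 2 libraries under 100000 miRNA reads.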

How the data were processed

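Small RNA libraries (NEBNext, single-end) of pEVs from 8 PS19 and 8 WT mice were aligned by the authors with STAR 2.5.3a to mm10 and annotated with COMPSRA. The deposited values are a signal, counts divided by the DESeq2 1.42.1 size factor of each library. All values (100%) were whole reads, to within 1e-06, once that factor was removed. The deposited log2 fold changes, Wald scores and p-values of the authors were not used. limma 3.58.1 (R 4.3.3, eBayes with trend) was fitted to log2(normalized count + 1) over all 15159 ncRNAs, of which 4096 had the same values as another entry, and tested on simulated data. edgeR 4.0.16 and DESeq2 1.42.0 on the recovered reads were alternatives. Permutation tests used scipy 1.17.1. Named were the members, entries of their hairpins, miRNAs with their seed, the 5 most similar miRNAs with a mean of at least 10, and listed miRNAs that were called. Members and lists were chosen with earlier results of these data known. miR-204-5p, miR-124-3p, miR-9-5p, miR-29b-3p, miR-129-5p, miR-24-3p, miR-144-5p, miR-126a-3p and the muscle miRNAs other than miR-206-3p were named after their values were seen. Intervals on reads cover counting error only, and reads carried no molecular identifiers.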

Additional observations from a re-analysis of the deposited data

Results flagged for a closer look

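Of 12 groups checked for a value that stands apart from the rest of its genotype (the 3 members, the 2 precursor entries and the ratio of miR-183-5p to miR-182-5p, each in PS19 and in WT), 1 was marked. The precursor entry mmu-mir-182 stood at 1.25 in PS19 replicate 3, as log2(normalized count + 1), and at 0 in the other 15 libraries, a value that comes from 1 read. By its construction the limit used marks about 1 in 20 groups of continuous values by chance, a rate that was not checked here, and groups at 0 in every library could not be marked.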

How the results depend on the processing

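miR-183-5p was lower in PS19 under 13 of 14 other settings (-1.11 to 0.020) and miR-182-5p under 11 of 14 (-0.76 to 0.35), and no raw p passed 0.05 for either. The sign turned for miR-183-5p with miRNA reads as scaling (0.020), and for miR-182-5p with miRNA reads as scaling (0.35), with the miRNA share as covariate (0.028) and without the libraries under 100000 miRNA reads (0.094), a setting chosen after seeing the data. Scaling by library totals put the median of all ncRNAs at -0.11, miR-183-5p at -1.11 and miR-182-5p at -0.76. miR-96-5p was called by edgeR (2.59) among 12 settings, and had no value where a mean of at least 1 or 10 was required. Leaving out each library in turn gave -1.16 to -0.53 for miR-183-5p, called without PS19 replicate 8 alone, -0.77 to -0.18 for miR-182-5p and 0.24 to 0.51 for miR-96-5p. The counts past raw p were 567 to 846 for ncRNAs and 43 to 97 for miRNA entries, with 43 without PS19 replicate 1 and 48 without PS19 replicate 3. Of 15159 ncRNAs, 2295 were called with edgeR (1195 higher, 1100 lower), 822 with DESeq2 (581 and 241), 441 with library totals (145 and 296) and 1131 with miRNA reads as scaling (1031 and 100). With a mean of at least 10, 230 of 2625 were called (171 and 59). Of 1247 miRNA entries, 38 were called with DESeq2 (10 and 28), 245 with edgeR (92 and 153), 49 with library totals (6 and 43) and 44 with miRNA reads as scaling (23 and 21). With a mean of at least 10, 36 of 294 were called (5 and 31). Beside the limma calls over all entries (735 of 15159 and 74 of 1247), that filter gave fewer calls but a larger share of the entries tested. The causes of these differences were not tested.

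Replicate numbers are shared between the genotypes, but deviations correlated by over 0.1 in 2 of 8 same-numbered pairs (-0.18 to 0.47), and 1 of 8 correlated best with its own number, so the numbers were not taken as pairs. With a replicate block the differences were -0.85 for miR-183-5p, -0.52 for miR-182-5p and 0.45 for miR-96-5p, and 685 ncRNAs and 68 miRNA entries passed, which changed no call on the members.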
